A study of Bos taurus with 16 samples.

Results

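CYR61 (current symbol CCN1) and CTGF (current symbol CCN2) were followed in cumulus and granulosa cells of cattle (Bos taurus) by RNA-seq. Both genes were chosen by name, as members of the CCN family that are known targets of the transcriptional co-activator YAP in the follicle. The rule uses no measured value, but it was set with earlier results of these data known. They are 2 of 36824 gene entries in the count table, and both were found and passed the filter on low counts. Cumulus cells surround the oocyte, and granulosa cells line the wall of the same follicle. The 4 groups were cumulus cells and granulosa cells from follicles ipsilateral or contralateral to the corpus luteum, the gland that forms from an ovulated follicle and secretes progesterone. Each group had 4 libraries, and each library was made from a pool of 3 animals. The labels give no breed, age, genotype or agent for these animals, nor whether 1 animal gave cells to several groups, so p-values measure the spread between pools.

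CCN proteins are secreted into the extracellular matrix, where they bind integrins, heparan sulfate proteoglycans and growth factors and change how cells adhere, divide and respond to signals. CYR61 and CTGF are switched on when YAP or its relative TAZ enters the nucleus and joins TEAD transcription factors, which the kinases of the Hippo pathway prevent. Serum response factor and TGF-beta signalling are also known inducers. In the ovary, CTGF is known from mice as a granulosa gene needed for normal follicle growth and ovulation.

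Libraries held between 10.1 and 21.9 M counts (M, mega). Levels are counts scaled to a library of 1 M (CPM) after TMM scaling, a correction for differences in library composition. At this depth the error from counting reads was small for the members. The lowest CTGF count of all libraries was 178, with an exact Poisson 95% interval from 153 to 206, which is 9.31 to 12.6 CPM. Such an interval covers the counting of reads only. PCR copies of a molecule are counted as separate reads, so the error in molecules may be wider and was not estimated. Contralateral cumulus libraries 2 and 4 stood apart among the cumulus libraries by their oocyte transcripts, with BCL2L10 at 9.64 and 112 CPM and H1FOO at 8.96 and 92.6 CPM. Among granulosa libraries contralateral library 3 stood apart, with BCL2L10 at 5.55 and H1FOO at 5.25 CPM. Only 2 of 13 listed oocyte markers could be found by name. Their summed level reached at most 1.38 CPM in ipsilateral cumulus and in ipsilateral granulosa libraries, and 10.8 CPM in contralateral granulosa library 3. None of the 8 cumulus markers or 10 granulosa markers listed was found by name, so the labelled cell types were not checked against them.

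The first comparison asked how the genes differ between the cell types. CYR61 was lower in cumulus cells, whose mean was 253 ± 53.2 CPM, against 432 ± 56.4 CPM in granulosa cells (SD over 8 libraries each). CTGF averaged 41.7 ± 39.1 CPM in cumulus cells, against 62.4 ± 12.2 CPM in granulosa cells, and did not pass the test. Of the 8 cumulus libraries, 7 held less CTGF than any granulosa library, and contralateral library 3 held more than any of them. For 14.5% of all entries all 8 cumulus libraries lay below all granulosa libraries. The share of entries with 7 of 8 below was not computed. In bulk samples, fewer cells that express a gene and less RNA per cell cannot be told apart.

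CYR61, which acts as a ligand for integrins on neighbouring cells, had 298, 285, 202 and 249 CPM in ipsilateral cumulus libraries 1 to 4. In contralateral cumulus libraries 1 to 4 it had 247, 266, 323 and 157 CPM. In granulosa cells it had 352, 466, 348 and 500 CPM in the ipsilateral and 421, 430, 481 and 454 CPM in the contralateral libraries. All 8 cumulus libraries lay below all 8 granulosa libraries, which was also true of 14.5% of all entries. Contralateral cumulus library 4, with the most oocyte transcripts, had the lowest CYR61 level of the 16 libraries.

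**Figure D1:**
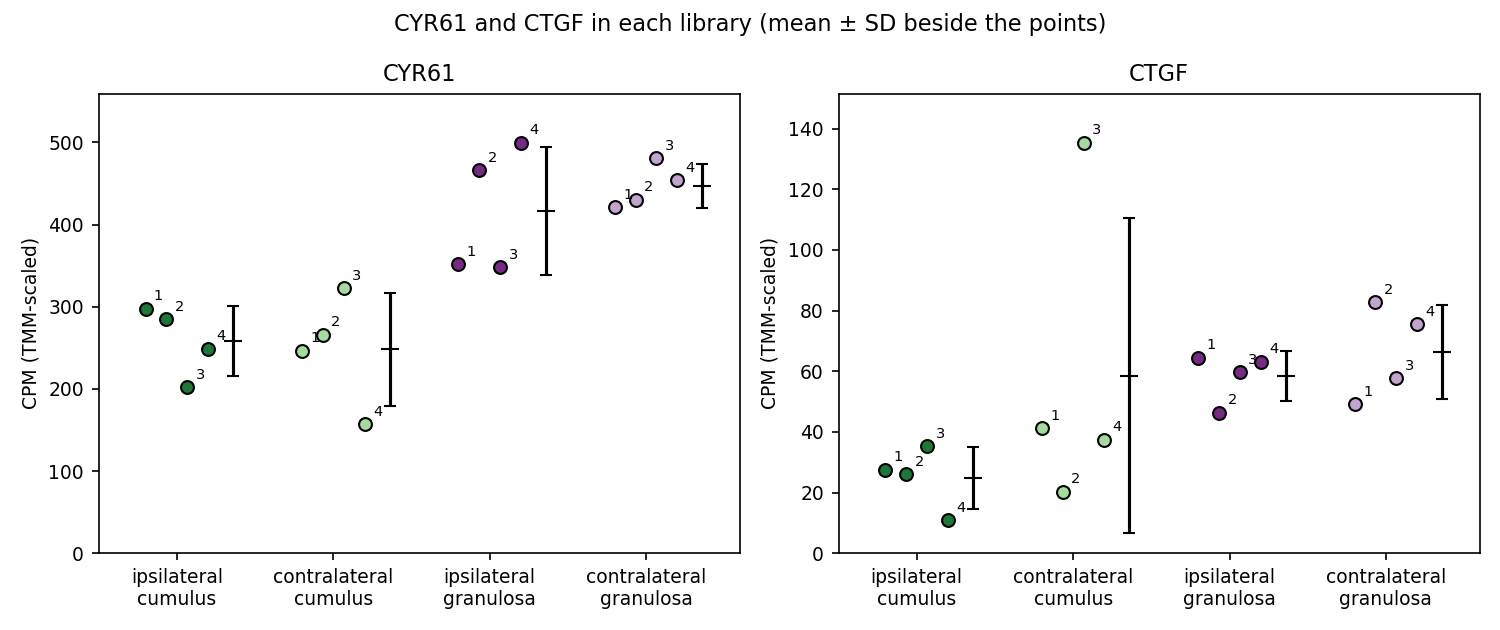
CYR61 and CTGF in each of the 16 libraries, in CPM after TMM scaling, on axes that start at 0. Points are libraries, numbered within their group, and the bars beside them give the mean and SD of the 4 libraries. The cumulus libraries lie below the granulosa libraries for CYR61, whereas for CTGF contralateral cumulus library 3, at 135 CPM, lies above all others.

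By edgeR's quasi-likelihood test over all entries, the log2 fold change of CYR61 (cumulus minus granulosa) was -0.77 ± 0.13 SE, a 1.70-fold lower level with a 95% interval from 1.41-fold to 2.06-fold (adjusted p = 8.44e-05). In this comparison 60.2% of all entries passed (30.3% of all entries were lower and 29.9% higher in cumulus cells), and 42.9% of entries had a larger difference in either direction. Against that background a call for 1 gene does not set it apart, and its size was near the median of all entries, whose absolute log2 fold change was 0.63. The direction and the call were the same in each other way of testing and without any 1 of the 16 libraries, where the log2 fold change lay between -0.84 and -0.68. Without the contralateral cumulus libraries 2 and 4 it was -0.67 (edgeR adjusted p = 0.000276). An exact two-sided permutation test on log2 CPM gave p = 0.000155, the smallest that 8 against 8 libraries allow.

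The difference of CYR61 was seen on both sides. On the ipsilateral side its log2 fold change was -0.69 ± 0.18 SE (edgeR adjusted p = 0.00581), and on the contralateral side -0.85 ± 0.18 SE (edgeR adjusted p = 0.00126). On the ipsilateral side 45.5% of all entries passed and 24% were lower in cumulus cells, and on the contralateral side 47.6% passed and 23.8% were lower.

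CTGF, which encodes connective tissue growth factor, had 27.5, 26.0, 35.3 and 10.8 CPM in ipsilateral cumulus libraries 1 to 4. In contralateral cumulus libraries 1 to 4 it had 41.1, 20.3, 135 and 37.5 CPM. In granulosa cells it had 64.5, 46.3, 59.8 and 63.2 CPM in the ipsilateral and 49.2, 82.7, 57.8 and 75.5 CPM in the contralateral libraries. The cumulus and granulosa libraries overlap because of contralateral cumulus library 3 alone, which stood 3.29-fold above the next cumulus library.

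Over both sides the log2 fold change of CTGF was -0.71 ± 0.33 SE, with a 95% interval from -1.41 to -0.0029 (edgeR adjusted p = 0.0770). DESeq2 (adjusted p = 0.0348) and limma-voom (adjusted p = 0.0109) passed the threshold with the same libraries. An exact two-sided permutation test on log2 CPM gave p = 0.0260, which is not adjusted over all entries. The edgeR unadjusted p was 0.0492. Without contralateral cumulus library 3, left out after its value had been seen, CTGF averaged 28.3 ± 10.6 CPM in cumulus cells (SD, n = 7). The log2 fold change was then -1.12 (edgeR adjusted p = 0.000606). Leaving out any other library gave adjusted p-values from 0.0619 to 0.140.

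**Figure D2:**
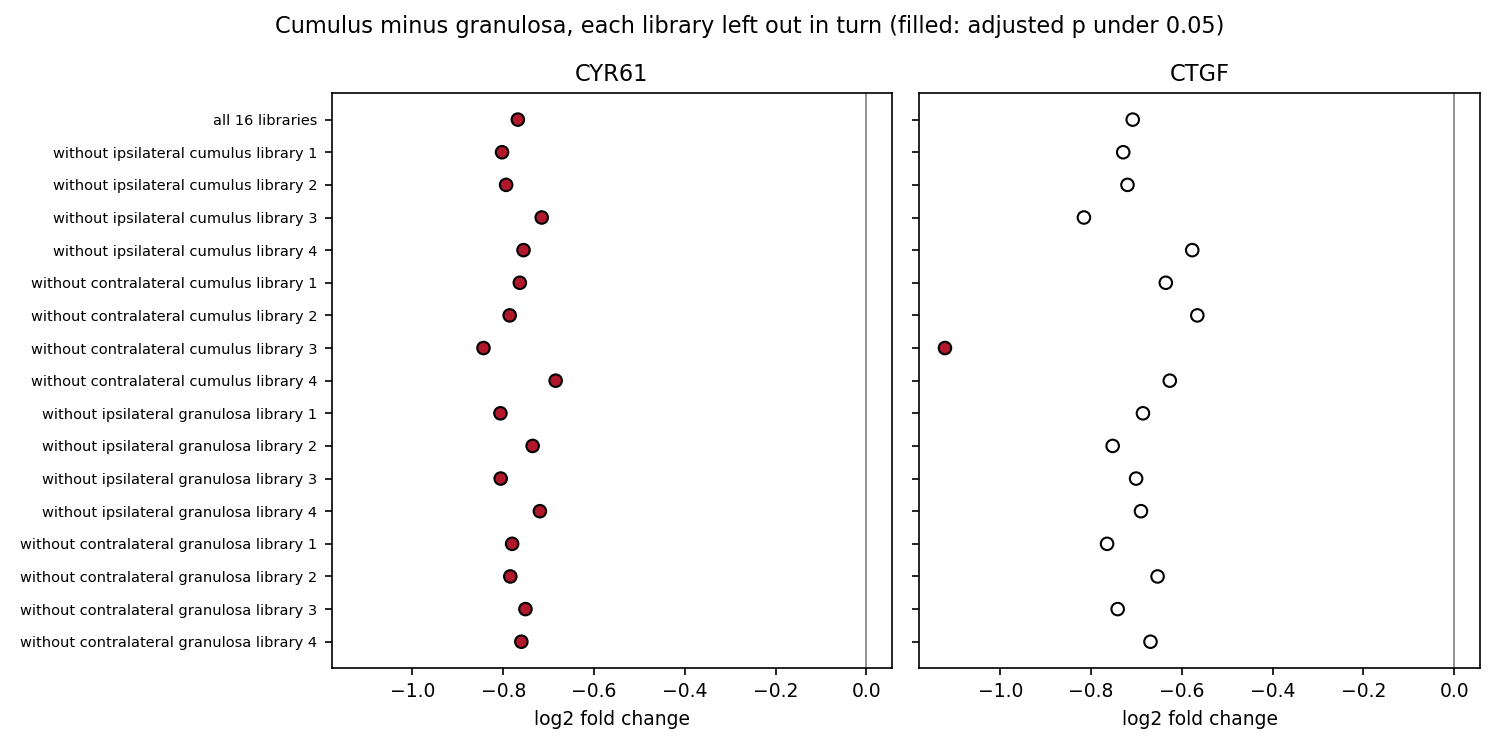
Log2 fold change of CYR61 (left) and CTGF (right) between cumulus and granulosa cells with all 16 libraries and with each library left out in turn. Filled points have an edgeR adjusted p under 0.05. CYR61 is filled in every row, and CTGF only without contralateral cumulus library 3, at -1.12.

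Split by side, CTGF was lower in ipsilateral cumulus than in ipsilateral granulosa cells, at 24.9 ± 10.2 against 58.4 ± 8.31 CPM (SD, n = 4 each). Its log2 fold change there was -1.23 ± 0.47 SE (edgeR adjusted p = 0.0456), and the libraries of the cell types did not overlap, as for 21.6% of all entries in this direction. That call was lost when any 1 of 7 of these 8 libraries was left out, all but ipsilateral cumulus library 3, with adjusted p-values from 0.0549 to 0.126. It was also lost without the filter on low counts (adjusted p = 0.0826). On the contralateral side CTGF averaged 58.5 ± 52.0 CPM in cumulus cells, against 66.3 ± 15.5 CPM in granulosa cells (SD, n = 4 each). The log2 fold change there was -0.18 ± 0.46 SE (edgeR adjusted p = 0.769). Without contralateral cumulus library 3 the contralateral log2 fold change was -1.01 (edgeR adjusted p = 0.0233). Without contralateral cumulus library 2, and without libraries 2 and 4 together, it was 0.10 and 0.41.

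The second comparison, which the title of the series concerns, asked whether closeness to the corpus luteum goes with a different level. No entry passed edgeR's test between sides in either cell type, 0% of 16323 entries in cumulus and of 16411 entries in granulosa cells. At an unadjusted p under 0.05 there were 1791 entries in cumulus and 579 in granulosa cells, DESeq2 called 120 and 1, and limma-voom called 0 in both. The libraries of cumulus cells also enter the comparison of the cell types, so the values of these comparisons are not independent.

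In cumulus cells CYR61 averaged 259 ± 42.8 CPM on the ipsilateral and 248 ± 68.7 CPM on the contralateral side (SD, n = 4 each). The log2 fold change (ipsilateral minus contralateral) was 0.05 ± 0.20 SE, with a 95% interval from -0.39 to 0.50 (edgeR adjusted p = 0.946). In granulosa cells CYR61 averaged 416 ± 78.1 CPM on the ipsilateral and 447 ± 26.9 CPM on the contralateral side (SD, n = 4 each). The log2 fold change was -0.10 ± 0.13 SE. The 95% interval ran from -0.39 to 0.19 (edgeR adjusted p = 0.9996). In cumulus cells the difference of the means was smaller than the SD of either side. In granulosa cells it was smaller than the SD of the ipsilateral pools but not than that of the contralateral pools. In both cell types the sides overlapped, while they did not overlap for 4.96% of all entries in cumulus and 2.25% in granulosa cells. In cumulus cells the direction turned to -0.11 without contralateral library 4 and to -0.020 without ipsilateral library 1.

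CTGF in cumulus cells averaged 24.9 ± 10.2 CPM on the ipsilateral and 58.5 ± 52.0 CPM on the contralateral side, and the sides overlapped. The log2 fold change was -1.23 ± 0.63 SE, with a 95% interval from -2.71 to 0.24 (edgeR unadjusted p = 0.0882, adjusted p = 0.506). Only 2.28% of all entries had a larger difference in either direction, but the value rested on contralateral library 3. Without it CTGF averaged 32.9 ± 11.1 CPM in the 3 other contralateral cumulus libraries (SD) and the log2 fold change was -0.41 (edgeR adjusted p = 0.795). An exact two-sided permutation test with all libraries gave p = 0.229, where the smallest that 4 against 4 libraries allow is 0.0286.

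In granulosa cells CTGF averaged 58.4 ± 8.31 CPM on the ipsilateral and 66.3 ± 15.5 CPM on the contralateral side. Its log2 fold change was -0.18 ± 0.18 SE, with a 95% interval from -0.58 to 0.22 (edgeR adjusted p = 0.9996).

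The last comparison asked whether the side effect itself differs between the cell types, which is the same as asking whether the cell types differ more on one side. For CTGF the side effect in cumulus minus that in granulosa cells was -1.05 ± 0.66 SE, with a 95% interval from -2.46 to 0.36 (edgeR adjusted p = 0.739), and -0.22 without contralateral cumulus library 3. For CYR61 it was 0.16 ± 0.26 SE, from -0.38 to 0.70 (edgeR adjusted p = 0.926). By edgeR 0% of 18038 entries passed, with 1358 at an unadjusted p under 0.05, 1 by DESeq2 and 0 by limma-voom. The call for CTGF on the ipsilateral side and its absence on the contralateral side are therefore not shown to differ.

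**Figure D3:**
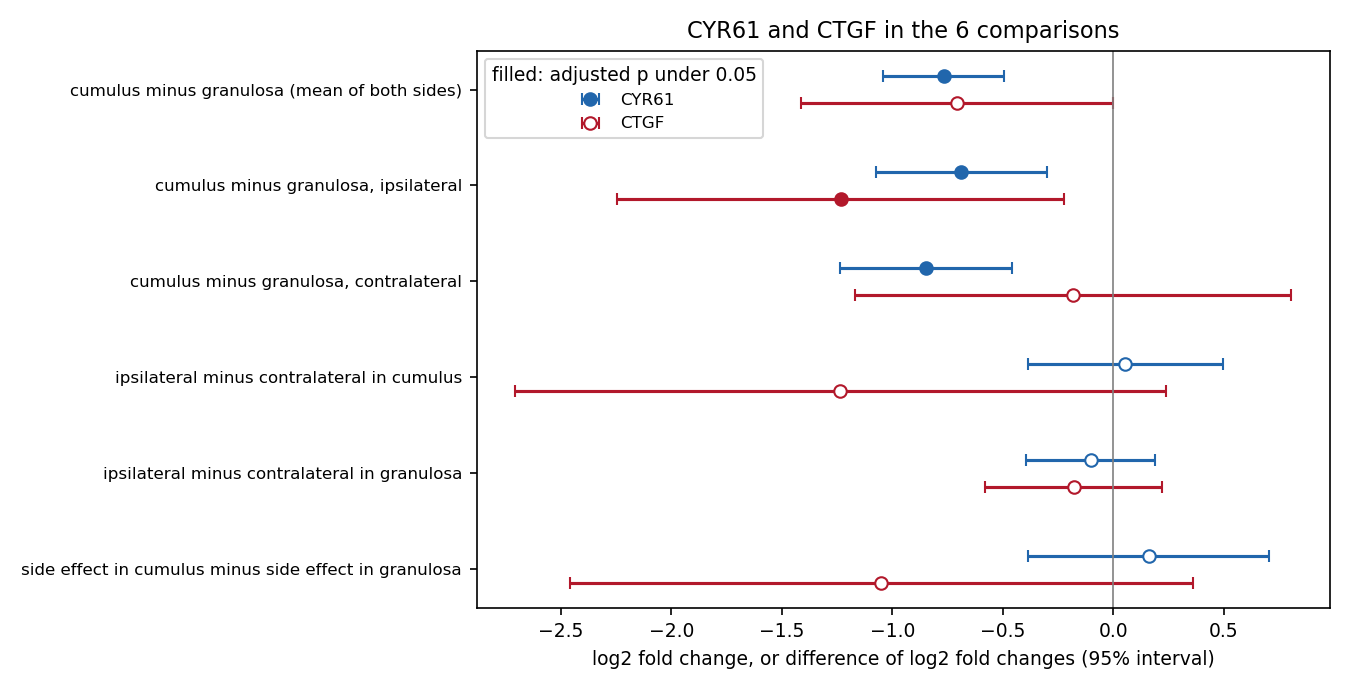
Log2 fold changes of CYR61 (blue) and CTGF (red) in the 6 comparisons, with 95% intervals from edgeR's fits; the lowest pair is a difference of log2 fold changes. Filled points passed at an adjusted p under 0.05. CYR61 is filled in the 3 comparisons of the cell types and CTGF only on the ipsilateral side, at -1.23, and every side comparison has an interval that includes 0.

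In order of mean level, lowest first, CYR61 stood in contralateral cumulus, ipsilateral cumulus, ipsilateral granulosa and contralateral granulosa cells. Neighbours of the same cell type did not pass edgeR's test, and ipsilateral cumulus and ipsilateral granulosa cells did. For CTGF the order was ipsilateral cumulus, ipsilateral granulosa, contralateral cumulus and contralateral granulosa cells. The last 3 of these overlapped in their libraries, and contralateral cumulus cells (58.5 CPM) and ipsilateral granulosa cells (58.4 CPM) had nearly equal means. Ipsilateral cumulus libraries (10.8 to 35.3 CPM) overlapped contralateral cumulus libraries (20.3 to 135 CPM) but no granulosa library. That place of contralateral cumulus cells rests on library 3: their median was 39.3 CPM, against 61.5 CPM in ipsilateral granulosa cells, and their mean without it was 32.9 CPM.

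The genes differed in how much they varied between pools of one kind. Within cumulus groups the SD of log2 CPM was 0.96 for CTGF, and of 4189 entries with at least as many counts 1.38% had a larger one. For CYR61 it was 0.36, and 11% of 447 such entries had a larger one. In granulosa cells the SD was 0.29 for CTGF and 0.20 for CYR61, with larger values in 21.9% and 44.7% of those entries. Between the highest and the lowest library CTGF ranged 12.5-fold in cumulus and 1.78-fold in granulosa cells, and CYR61 2.05-fold and 1.44-fold. Without contralateral cumulus library 3 the range of CTGF in cumulus cells was 3.79-fold and its SD 0.67, with larger SDs in 2.03% of the 4189 entries.

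Contralateral cumulus library 3 also differed from the other cumulus libraries in a few other entries. Of the 4189 entries with at least as many counts as CTGF, 14, with CTGF among them, were at least 2-fold higher there than in the next cumulus library. The gap of CTGF was the widest of these 14. The same count was 14 in contralateral cumulus library 4, 12 in ipsilateral cumulus library 2 and at most 1 in each of the other 5. Gaps at least as wide as that of CTGF were held by 7 entries in contralateral cumulus library 4 and 7 in ipsilateral cumulus library 2. Contralateral cumulus library 2 held 1 such entry. Library 3 held the oocyte markers BCL2L10 at 0.259 and H1FOO at 0.584 CPM and the platelet chemokine gene PF4 at 0.0648 CPM, and no counts of the surface epithelium marker MUC16. LAMA2, a laminin chain listed as a stroma marker, was at 3.63 CPM there and between 3.31 and 5.79 CPM in the other cumulus libraries. The protease inhibitor genes TIMP1 and A2M, which are more abundant in granulosa cells, were at 72.0 and 12.1 CPM in library 3, within the range of the other cumulus libraries (14.9 to 83.2 and 1.16 to 19.2 CPM). PF4, MUC16 and LAMA2 were the members found by name of lists of 12, 8 and 10 markers.

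Beside the cell type difference of the members, PF4 lay between 0.449 and 3.91 CPM in granulosa libraries and at most at 0.243 CPM in cumulus libraries. MUC16 lay between 0 and 44.3 CPM in granulosa libraries and was at 0 in 7 of 8 cumulus libraries. LAMA2 averaged 3.96 ± 0.778 CPM in cumulus cells and 3.09 ± 1.11 CPM in granulosa cells (SD over 8 libraries each). It did not pass over both sides (edgeR adjusted p = 0.0702) and was higher in cumulus cells on the contralateral side, where its log2 fold change was 0.89 (edgeR adjusted p = 0.0125). The part of these cells in the values of CYR61 and CTGF was not tested.

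The ratio of CTGF to CYR61 reads within a library needs no scaling between libraries. CTGF reads came to between 4.35% (ipsilateral library 4) and 41.9% (contralateral library 3) of CYR61 reads in cumulus libraries, and to between 9.94% and 19.2% in granulosa libraries. Since transcript lengths were not used, the ratio is compared between libraries and is not a ratio of molecules. Its log2 value averaged -2.95 ± 1.04 in cumulus and -2.80 ± 0.36 in granulosa cells (SD, n = 8 each). The difference of -0.14 was within that spread (exact two-sided permutation p = 0.725, adjusted p = 0.857 over 3 tests). In cumulus cells the ratio averaged -3.48 ± 0.82 on the ipsilateral and -2.41 ± 1.03 on the contralateral side (SD, n = 4 each, exact permutation p = 0.200, adjusted p = 0.600). In granulosa cells it averaged -2.83 ± 0.41 on the ipsilateral and -2.78 ± 0.35 on the contralateral side (SD, n = 4 each, exact permutation p = 0.857, adjusted p = 0.857).

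Across the 8 pools of one cell type no relation between the genes was shown, and so few pools cannot show that there is none. Over the 8 cumulus libraries, Pearson's r of log2 CPM was 0.17 (exact permutation p = 0.668, adjusted p = 0.866 over 2 relations) and Spearman's rho was -0.024 (exact permutation p = 0.977, adjusted p = 0.977). Without contralateral library 4 and ipsilateral library 3, the farthest from the median of CYR61, r was 0.69, and without contralateral library 3 alone it was -0.39, so the value depends on single libraries. Over the 8 granulosa libraries r was -0.072 (exact permutation p = 0.866, adjusted p = 0.866) and rho was -0.14 (exact permutation p = 0.752, adjusted p = 0.977), with r at -0.098 without ipsilateral libraries 1 and 3. A pooled r over all 16 libraries was not tested because the libraries fall into clusters by cell type, and it is given below as a description only. Within 1 side of a cell type there are only 4 libraries.

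**Figure D4:**
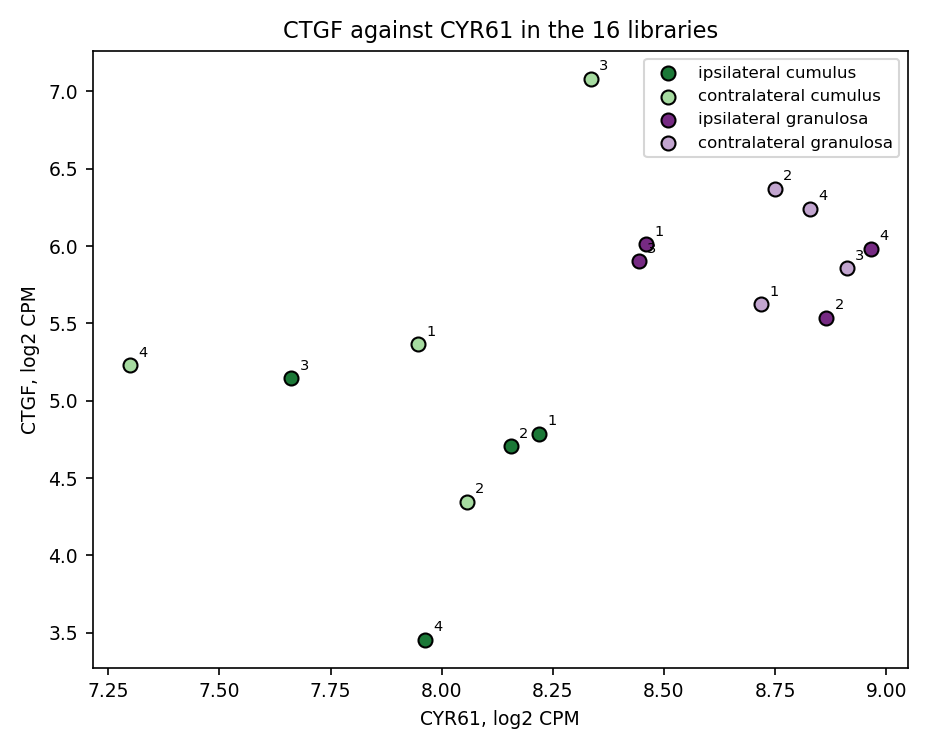
CTGF against CYR61 in the 16 libraries, both as log2 CPM, coloured by group and numbered within it. The granulosa libraries lie to the right, and the cumulus libraries to the left spread widely along the CTGF axis, with r = 0.17 over the 8 cumulus and r = -0.072 over the 8 granulosa libraries.

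Entries whose log2 CPM was most like that of each gene over the 16 libraries were ranked by Pearson's r as a description, since all share the libraries and the split by cell type. Among named entries, those most like CYR61 were ZCCHC6 (TUT7, a terminal uridylyltransferase, r = 0.90), C8H9orf3 (0.88), ADNCR (0.87), KIAA1211 (CRACD, 0.87) and the septin gene SEPT6 (0.87). Among those most like CTGF were the TNF receptor family gene TNFRSF8 (0.81), NATD1 (0.77), UPF3A, a nonsense-mediated decay gene (0.75), and PQLC1 (SLC66A2, 0.74). Of the entries ranked only 812 have a name. Those given above stood at number 14 to 60 for CYR61 and 18 to 98 for CTGF among all entries. CTGF was number 4559 of 18036 entries in likeness to CYR61, and CYR61 number 2078 in likeness to CTGF (r = 0.52).

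With the 4 group means removed, the named entries most like CYR61 were LOC112447112 (VAMP9, r = 0.77), C8H9orf3 (0.69), MARC2 (MTARC2, 0.67), the basement membrane collagen gene COL4A4 (0.66) and C1H21orf58 (0.65). Among those most like CTGF were TIAF1 (0.66), NATD1 (0.65), TMEM203 (0.65) and TNFRSF8 (0.64). The r between CYR61 and CTGF was then 0.21.

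All 6 genes of the CCN family were found by name, and 5 passed the filter on low counts. Between cumulus and granulosa cells 2 were lower in cumulus cells (CYR61 and WISP1), 2 were higher (NOV and WISP3) and CTGF did not pass, where 60.2% of all entries passed. WISP1 passed the filter through granulosa libraries only and WISP3 through cumulus libraries only. Those are the cells where each is higher, so the calls for WISP1 and WISP3 are given as a description. The median log2 fold change of the 5 was that of CTGF itself, -0.71, against 0.03 for all entries tested. CYR61 was called lower and NOV higher, so this median does not describe the family. Between sides, CYR61, CTGF, NOV and WISP3 were tested in cumulus cells and CYR61, CTGF, NOV and WISP1 in granulosa cells, and none passed, where 0% of entries did.

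NOV (CCN3), a family member known to restrain cell growth, had 1.27, 1.56, 1.28 and 4.08 CPM in ipsilateral and 1.06, 3.89, 1.30 and 2.27 CPM in contralateral cumulus libraries 1 to 4. In granulosa libraries it lay between 0 and 1.22 CPM, a range that overlapped that of the cumulus libraries. Its log2 fold change was 1.89 ± 0.59 SE (edgeR adjusted p = 0.0108), and 1.47 without contralateral cumulus libraries 2 and 4 (edgeR adjusted p = 0.0753). WISP3 (CCN6), which in humans is linked to a skeletal dysplasia, stood at 2.83 ± 0.771 CPM in cumulus cells and at 0.668 ± 0.607 CPM in granulosa cells (SD over 8 libraries each). Its log2 fold change was 2.20 ± 0.42 SE, given as a description since WISP3 passed the filter through cumulus libraries only. Ipsilateral granulosa library 4, at 2.02 CPM, was the only granulosa library that overlapped the cumulus libraries.

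WISP1 (CCN4), a target of Wnt signalling, had no counts in any of the 8 cumulus libraries and 179 counts in 7 of the 8 granulosa libraries. Set against a limit of 3 counts over the cumulus group, its summed count was at least 53.4-fold higher in granulosa cells. That bound allows for the absent counts in cumulus cells and not for the spread among granulosa libraries. Among granulosa libraries it ran from 0 counts in ipsilateral library 4 to 67 counts, or 4.34 CPM, in ipsilateral library 1. WISP2 (CCN5), the member without the C-terminal domain, had 4 counts in all, in ipsilateral granulosa library 3, and did not pass the filter.

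**Figure D5:**
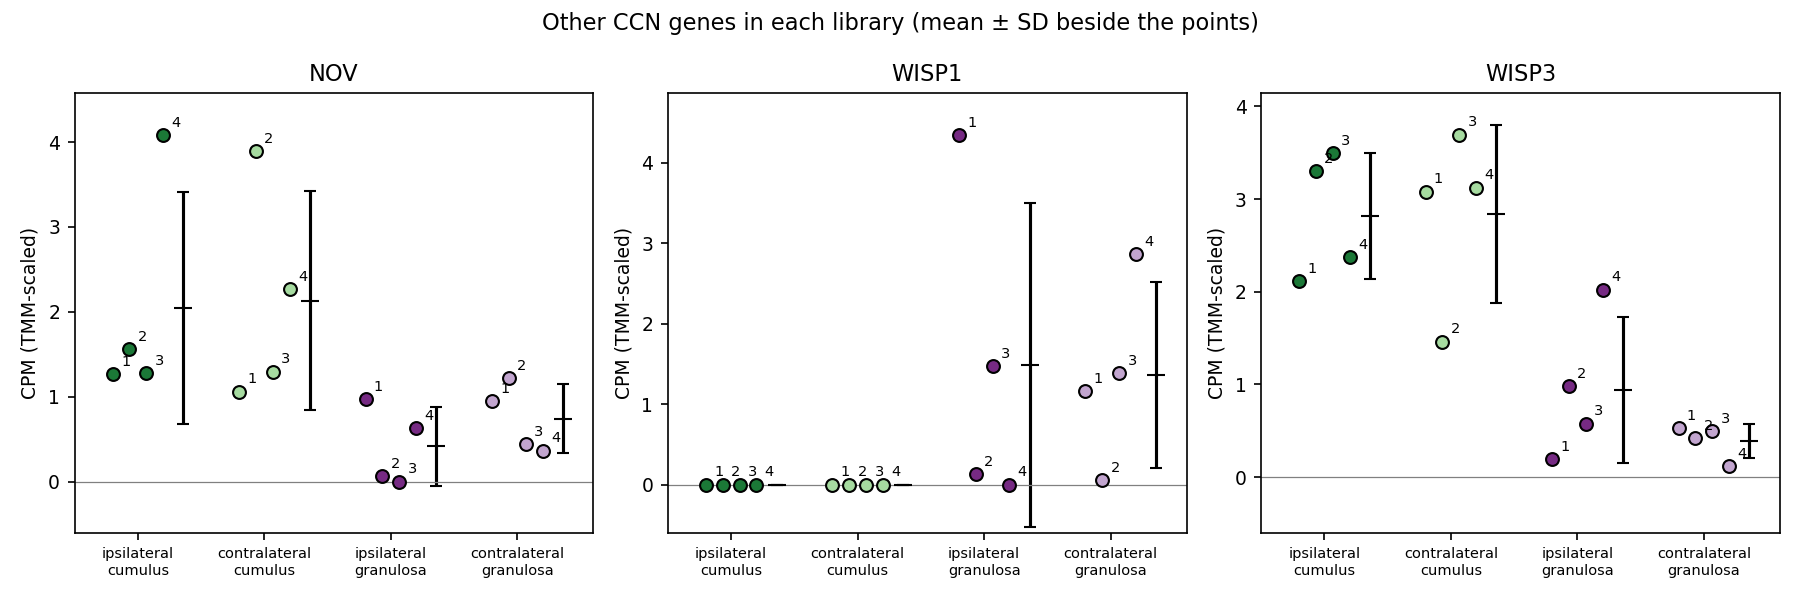
NOV, WISP1 and WISP3 in each of the 16 libraries, in CPM after TMM scaling; points are libraries numbered within their group, and the bars beside them give the mean and SD of 4 libraries. NOV and WISP3 are higher in the cumulus libraries, WISP1 is at 0 in all 8 of them, and no level exceeds 4.34 CPM.

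Of the other genes around the pathway few could be followed by name. Of 32 Hippo and YAP-TEAD genes, only VGLL1, a TEAD cofactor, was found, at 0 counts in all 8 cumulus libraries and 13 counts in granulosa libraries, and it did not pass the filter. None of 26 other YAP-TEAD targets, 22 CCN-binding proteins, 16 TGF-beta genes and 20 immediate early genes was found. Of 18 genes of the SRF-MRTF and actin list, 2 were found, both coactivators of serum response factor. MKL2 (MRTFB) was lower in cumulus cells, at 50.1 ± 6.78 against 60.4 ± 6.82 CPM in granulosa cells (SD over 8 libraries each). Its log2 fold change was -0.27 ± 0.09 SE (edgeR adjusted p = 0.0216), where 60.2% of all entries passed and 75.3% had a larger difference in either direction. On the ipsilateral side MKL2 passed (log2 fold change -0.37, edgeR adjusted p = 0.0345), and kept that call in 4 of 8 fits with a library left out. On the contralateral side it did not pass (log2 fold change -0.17, edgeR adjusted p = 0.306). MKL1 (MRTFA) had 10.02 ± 2.25 CPM in cumulus cells and 12.03 ± 2.85 CPM in granulosa cells (SD over 8 libraries each) and did not pass (log2 fold change -0.26 ± 0.18 SE, edgeR adjusted p = 0.212). Neither passed between sides in cumulus or granulosa cells.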

How the data were processed

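Per the labels' protocols, libraries were built from DNase-treated RNA, labelled polyA, with the SMART-Seq HT and Nextera XT kits and sequenced as 75-bp single-end reads. These kits do not mark strand; in the reference neither CYR61 nor CTGF overlaps another gene. STAR, Trimmomatic, FastQC and DESeq2 are named in the submitters' processing notes. How reads were counted, and on which build and annotation, is not given in the sources used here. Read counts were deposited by the authors as unnormalized whole numbers per gene entry, with 1 column per library matched to its sample by title.

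Tests were run in R 4.3.3 with edgeR 4.0.16 (filterByExpr with minimum count 10 and minimum total 15, TMM, robust quasi-likelihood F-test, Benjamini-Hochberg over all entries, threshold 0.05). The fits between sides held 8 libraries, those of 1 cell type, and all other fits held all 16 with 4 group means. The SE was derived from the log2 fold change and its F statistic. Levels are TMM-scaled CPM, and log2 CPM used a prior count of 2. Alternatives were DESeq2 1.42.0, limma-voom (limma 3.58.1), RLE size factors, no filter, no robust option, other sets of libraries and each library left out. The code was tested on simulated data.

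CYR61 and CTGF were each counted a second time under an Ensembl entry (ENSBTAG00000009844 and ENSBTAG00000006367), with at most 3 and 2 counts of difference in any library. Both entries stayed in the test. Symbols come from the table or, by gene number, from RefSeq genes of ARS-UCD2.0, and 2474 of 36824 entries have a name. Libraries of a group differed by more than sampling noise, with a chi-square per entry between 12.9 and 78.7.

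The named genes are both members, the listed genes found by name, and the 5 named entries most like each member by Pearson's r, of which 1 is not reported here. TIMP1 and A2M were added after their values were seen. The members and lists were chosen with earlier results of these data known, so the CYR61 difference between cell types is not independent support for it.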

Additional observations from a re-analysis of the deposited data

Results flagged for a closer look

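Values far from the rest of their group of 4 were looked for in the 6 CCN genes and in the CTGF to CYR61 ratio, over 28 sets of 4 libraries. Of these, 5 held no counts and could not be marked, and of the other 23 chance would mark about 1 in 20. NOV stood at 4.08 CPM in ipsilateral cumulus library 4, against 1.27 to 1.56 CPM in the other 3, and the gap made up 0.897 of the range of the group. WISP2 had 4 counts in ipsilateral granulosa library 3 and none in the other 3 libraries, so the gap made up 1 of the range, as it must with counts in a single library. CTGF in contralateral cumulus library 3 had a gap of 0.819 of the range, just under Dixon's critical value for 4 samples.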

How the results depend on the processing

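CYR61 kept its direction and its call between the cell types, over both sides and on each side, under every alternative run. CTGF over both sides had a log2 fold change of -0.71 that passed with DESeq2 (-0.72) and limma-voom (-0.99), and ran from -1.12 to -0.57 with each library left out. In the permutation test the difference was -0.93 (p = 0.0260, not adjusted over all entries). On the ipsilateral side it was -1.26 without the filter, where it no longer passed, and -1.45 to -0.97 with each library left out; on the contralateral side it ran from -1.01 to 0.10. Without contralateral cumulus libraries 2 and 4, an alternative chosen after the data had been seen, CTGF over both sides was -0.42 (edgeR adjusted p = 0.237) and on the contralateral side 0.41. Its side difference in cumulus cells was then -1.83 and its difference of side effects -1.65, and neither passed. For CYR61 without these libraries, the side difference in cumulus cells was -0.14 and the difference of side effects -0.042. With each library left out these 2 values of CYR61 ran from -0.11 to 0.21 and from -0.0048 to 0.31. The difference of the log2 CTGF to CYR61 ratio ran from -0.38 to 0.084 between the cell types and from -0.17 to 0.12 between granulosa sides, and MKL1 on the contralateral side from -0.28 to 0.049. Between sides edgeR called 0 entries in cumulus cells, DESeq2 called 120, and edgeR called 30 without contralateral libraries 2 and 4. DESeq2 called 1 in granulosa cells and 1 for the difference of side effects, where edgeR called 0. The causes were not tested. Side differences smaller than the intervals given cannot be seen with 4 pools a group. No paired analysis was possible because the labels give no numbers that tie pools of different groups to each other.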
